A study of Homo sapiens with 6 samples.

Results

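The genes described here are the STAT transcription factors and the Janus kinases, read in YCC3, which is a human cell line from gastric cancer, after silencing of CTNNB1. They were taken from the array rows whose only annotated gene symbol is one of 9 named genes, STAT2, STAT3, STAT4, STAT5A, STAT5B, STAT6, JAK1, JAK2 and TYK2. Of these 9 genes, 8 had such a row, 1 row each, among 18417 genes in all, and STAT2 was not analysed here. YCC3 cells received siRNA against CTNNB1, the gene of beta-catenin (3 arrays), or a non-targeting siRNA as control (3 arrays). Total RNA was taken 48 hours later and read on Affymetrix Human Gene ST arrays. Both groups thus received an siRNA, and its sequence is not given in the labels. The labels call the samples biological replicates of 1 cell line without saying whether they were separate cultures, so each p-value rests on the spread among the 6 arrays, which may be technical.

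Janus kinases sit on the inner side of cytokine receptors. When a cytokine brings the receptor chains together, the kinases phosphorylate each other and the receptor, STAT proteins dock there and are phosphorylated in turn, and the paired STATs enter the nucleus and bind DNA. Interferon signals through JAK1 and TYK2 to the complex ISGF3, in which STAT2 and IRF9 take part, and interleukin-6 type cytokines signal mainly through STAT3. The pathway is switched by phosphorylation, which an RNA array does not measure.

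None of the 8 genes passed the threshold, a limma p of 0.05 after Benjamini-Hochberg adjustment over all 18417 genes, which 4.72% of all genes passed (2.07% as rises and 2.65% as falls). That share was lower without some arrays, at 1.54% without CTNNB1 siRNA replicate 1, 1.56% without control replicate 1, 2.02% without control replicate 3 and 2.29% without CTNNB1 siRNA replicate 2. STAT6 and STAT3 had the largest differences, 1.28-fold and 1.18-fold higher signal with CTNNB1 siRNA. Their groups did not overlap, as in 26% of all genes. The other 6 lay within 0.09 log2 units of no change, with both signs among them. In RNA from whole cultures, a change in some cells and a smaller one in all cells cannot be told apart. The median change of the 8 genes was 0.03 log2 units, against 0.0056 over all genes. In the same cells all 39 measured genes of a list of ISGF3 targets rose, with a median change of 2.10. That list was chosen with earlier results of these data known.

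The targeted transcript was lower in the cells labelled as silenced. CTNNB1 measured 11.80, 11.81 and 11.90 log2 units of RMA signal with control siRNA and 10.94, 11.06 and 11.20 with CTNNB1 siRNA, in the order of replicates 1 to 3. RMA signal is a background-corrected and normalised array brightness. The log2 change of -0.77 ± 0.10 (SE) had an adjusted p of 0.00267 in limma. The median over the whole table was between 5.88 and 5.95 on each array, and the number of arrays limits the precision. All 9 epithelial markers examined, EPCAM, CDH1 and KRT18 among them, lay above the array median on every array. Of 12 leukocyte markers 1 did so, CORO1A, and of 11 stromal and endothelial markers 1 to 2, and none of these 23 genes was called by limma or had an unadjusted p under 0.05. The summed log2 signals of the 12 leukocyte markers ran from 51.5 to 52.4 with control siRNA and from 52.8 to 54.5 with CTNNB1 siRNA. Those of the 11 stromal and endothelial markers ran from 49.5 to 50.4 and from 50.4 to 51.4. The sums of the 9 epithelial markers ran from 98.6 to 99.5 and from 100.3 to 100.9, and those of the 8 measured gastric markers from 52.0 to 53.1 and from 53.9 to 55.2. Of the epithelial and gastric markers CLDN4, ELF3, TFF1 and CLDN18 rose, with limma adjusted p of 0.00763, 0.0462, 0.000314 and 0.038. The share called was 22.2% of the epithelial and 25% of the gastric markers, against 4.72% of all genes. Changes were positive in 8 and negative in 1 of the epithelial markers, and positive in 5 and negative in 3 of the gastric ones. KRT18 measured -0.29 ± 0.10 (SE; limma, adjusted p = 0.127) and PGC -0.25 ± 0.10 (0.202), and neither passed. The part of these shifts in the STAT3 and STAT6 differences was not tested. Of the 8 measured gastric markers 4 to 5 lay above the median, TFF1 and CLDN18 among them, while GKN1, at 2.61 with control siRNA, was dim.

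The 250 bases before the transcription start are shown for the 2 members whose groups did not overlap and, for contrast, for 2 called genes of the same pathway, IRF9 and the ISGF3 target IFIT1. The sequences are RefSeq promoter windows of build GRCh38.p14, printed 5′ to 3′ in the direction of transcription. They cover chr17:42388443-42388692 (minus strand), chr12:57110290-57110539 (minus strand), chr14:24161015-24161264 (plus strand) and chr10:89392373-89392622 (plus strand). Capitals mark matches to 3 motifs searched on both strands, GAAANNGAAA (the core of the interferon-stimulated response element bound by ISGF3), TTCNNNGAA (the element bound by most STAT dimers) and TTCNNNNGAA (the wider spacing that STAT6 prefers).
STAT3: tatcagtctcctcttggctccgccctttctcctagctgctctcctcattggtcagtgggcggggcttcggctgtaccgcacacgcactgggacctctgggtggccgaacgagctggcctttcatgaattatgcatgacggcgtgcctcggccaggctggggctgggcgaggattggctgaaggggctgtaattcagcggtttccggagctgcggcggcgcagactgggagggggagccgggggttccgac
STAT6: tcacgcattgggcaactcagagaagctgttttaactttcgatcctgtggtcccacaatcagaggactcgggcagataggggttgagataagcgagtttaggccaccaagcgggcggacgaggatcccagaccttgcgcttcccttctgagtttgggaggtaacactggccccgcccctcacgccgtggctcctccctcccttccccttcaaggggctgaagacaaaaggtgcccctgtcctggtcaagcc
IRF9: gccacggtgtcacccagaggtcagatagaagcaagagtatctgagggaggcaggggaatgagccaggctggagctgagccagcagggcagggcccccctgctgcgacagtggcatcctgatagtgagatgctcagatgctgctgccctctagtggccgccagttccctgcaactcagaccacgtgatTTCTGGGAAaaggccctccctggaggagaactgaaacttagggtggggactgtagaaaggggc
IFIT1: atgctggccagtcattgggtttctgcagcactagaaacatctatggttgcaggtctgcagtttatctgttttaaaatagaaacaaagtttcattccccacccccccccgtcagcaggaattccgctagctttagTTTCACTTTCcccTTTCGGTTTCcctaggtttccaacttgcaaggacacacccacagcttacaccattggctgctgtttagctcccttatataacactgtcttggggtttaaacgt

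The STAT3 and STAT6 windows held no capitals. IFIT1 held 2 matches to GAAANNGAAA, which stand in the printed direction as TTTCACTTTC and TTTCGGTTTC, and IRF9 held 1 match to TTCNNNGAA, TTCTGGGAA. All 8 measured members had at least 1 RefSeq window, 16 in all because STAT4, STAT5A, JAK1 and JAK2 have several starts. None of the 16 held GAAANNGAAA, which 3.02% of the 35116 windows searched hold, and none held TTCNNNGAA, which 6.57% hold. At shares this low, 16 windows are too few to tell an absence from the usual share. One STAT5A window held TTCNNNNGAA, as TTCCTCTGAA, against 5.38% of all windows. TCAAAG, the core letters bound by the TCF/LEF partners of beta-catenin, stood in 1 window of STAT5A and 1 of JAK1, against 11.2% of all windows. Of the 44 windows of ISGF3 targets 23 held GAAANNGAAA, in 19 of the 31 targets with a window. Matches are letters in a short window and no measured binding, and the motifs do not overlap one another in the printed sequences.

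**Figure D1:**
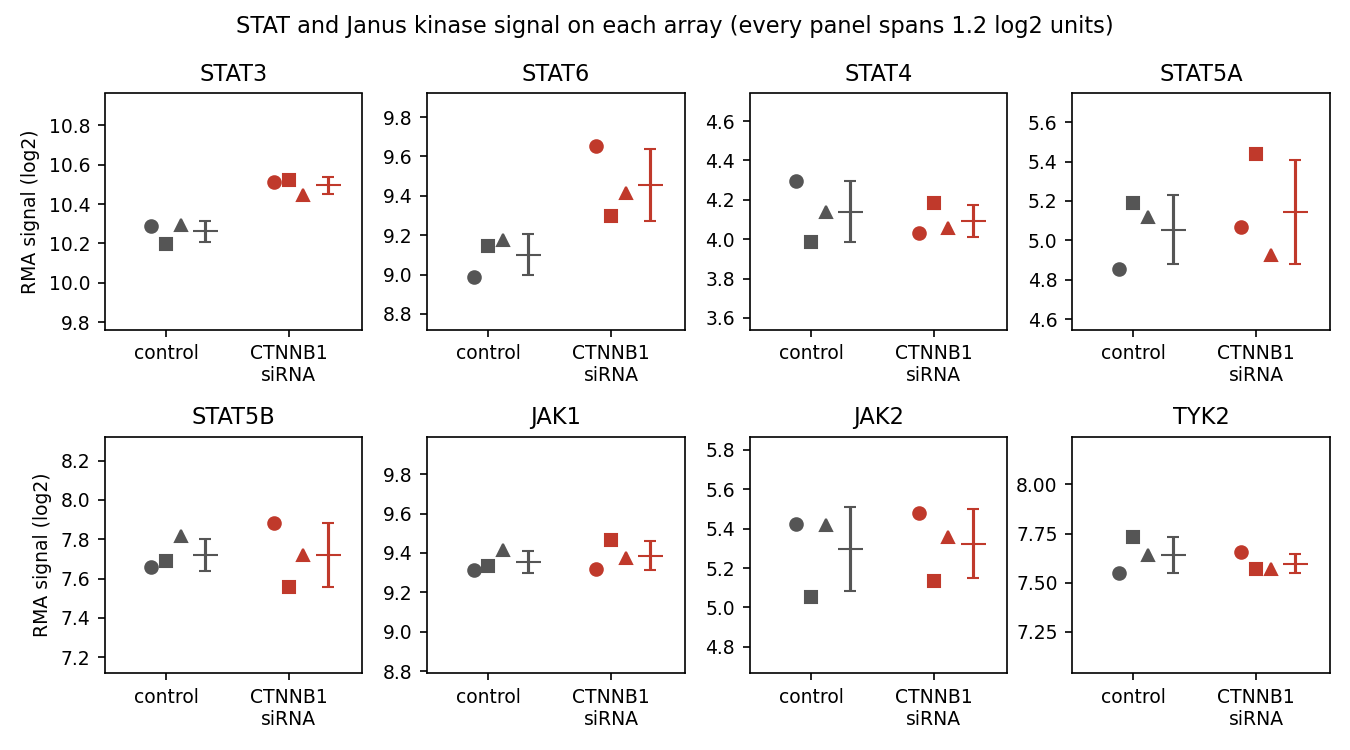
RMA signal (log2) of the 8 measured STAT and Janus kinase genes on each array, grey for control siRNA and red for CTNNB1 siRNA, with circles, squares and triangles for replicates 1, 2 and 3 and the bar beside them for the mean and SD (n = 3). The STAT3 and STAT6 groups do not overlap, and in the other 6 panels they do.

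STAT6, the mediator of interleukin-4 and interleukin-13 signals, had the largest difference. Its signal (array row 7964360) was 8.99, 9.14 and 9.18 log2 units with control siRNA and 9.65, 9.30 and 9.41 with CTNNB1 siRNA. Every silenced array lay above every control array, and replicate 1 held both the lowest control and the highest CTNNB1 siRNA value. The means were 9.10 ± 0.10 and 9.46 ± 0.18 (SD, n = 3 each). The log2 change was 0.35 ± 0.12 (SE), or 1.28-fold with a 95% confidence interval of 1.07 to 1.53. The difference did not pass the threshold (limma, adjusted p = 0.116; unadjusted p = 0.0121). It passed in 3 of 12 other settings, cyclic loess scaling (adjusted p = 0.0499), removal of the dimmest 50% of genes (0.0306) and a trended and robust variance (0.0417). In these settings 4.85%, 20.2% and 8.81% of the genes in the fit passed, against 4.72% as reported. STAT6 passed with none of the 6 arrays left out, where the adjusted p ran from 0.109 to 0.339.

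STAT3, which carries interleukin-6 type signals to growth and acute-phase genes, showed a smaller and tighter difference. Its signal (array row 8015607) was 10.29, 10.20 and 10.29 with control siRNA and 10.51, 10.52 and 10.45 with CTNNB1 siRNA. Again every silenced array lay above every control array, with SDs of 0.053 and 0.041 (n = 3 each). The log2 change was 0.23 ± 0.09 (SE), or 1.18-fold with a 95% confidence interval of 1.02 to 1.35, and it did not pass the threshold (limma, adjusted p = 0.183; unadjusted p = 0.0286). STAT3 did not pass under any of the 12 other settings, where its adjusted p ran from 0.0669 to 0.285, or with any 1 array left out.

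STAT3 and STAT6 were the only 2 of the 8 members with an unadjusted limma p under 0.05, and 20.3% of all genes had one. With 1 array left out the count of 2 fell to 0 without control replicate 1 or CTNNB1 siRNA replicate 1, and to 1 without control replicate 2 or CTNNB1 siRNA replicate 2. They were also the 2 with groups that did not overlap, as in 26% of all genes. Both belong to the brightest 25% of genes, whose median change was -0.07. In that part 2022 of 4605 genes had groups that did not overlap, and 1532 had an unadjusted limma p under 0.05. The 2 changes stayed positive under every scaling tried, between 0.20 and 0.31 for STAT3 and between 0.32 and 0.43 for STAT6.

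**Figure D2:**
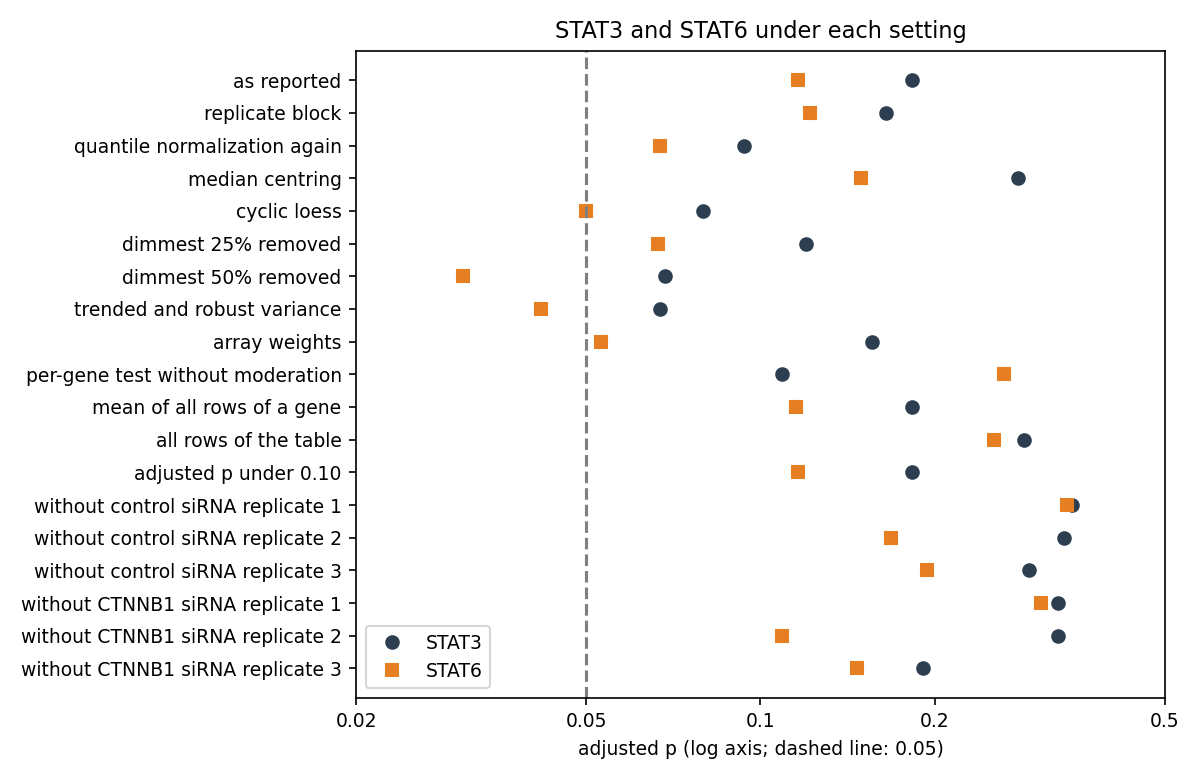
Adjusted p (log axis, dashed line at the threshold of 0.05) of STAT3 and STAT6 as reported, under the 12 other settings and with each of the 6 arrays left out. STAT6 lies below the line in 3 settings, and STAT3 in none.

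The other STAT genes were close to no change. STAT5A and STAT5B are near-identical factors that act for growth hormone, prolactin and interleukin-2 type cytokines, and STAT3 is their neighbour: the 3 follow each other among the protein-coding genes of chromosome 17 in the RefSeq table of GRCh38.p14. STAT5B (row 8015590) measured 7.66, 7.69 and 7.82 with control siRNA and 7.88, 7.56 and 7.72 with CTNNB1 siRNA, with the control values lying inside the range of the silenced ones. Its log2 change of -0.002 ± 0.11 (SE) had a 95% confidence interval of -0.25 to 0.24. STAT5A (row 8007212) measured 4.86, 5.19 and 5.12 against 5.07, 5.44 and 4.93, a change of 0.09 ± 0.14 (SE) with an interval of -0.23 to 0.41. Probes of these 2 genes can share signal, so the rows may not be independent. STAT4 (row 8057771), best known as the interleukin-12 factor of T cells and natural killer cells, measured 4.29, 3.99 and 4.14 against 4.03, 4.18 and 4.06. Its change was -0.05 ± 0.11 (SE). Both STAT4 and STAT5A were dimmer than the array median, where signal may be background. Adjusted p was 0.994 for STAT5B, 0.782 for STAT5A and 0.847 for STAT4 (limma).

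The kinases, too, measured close to no change. JAK1, which serves nearly all interferon and interleukin-6 type receptors, measured 9.31, 9.33 and 9.42 (row 7916747) with control siRNA and 9.32, 9.47 and 9.38 with CTNNB1 siRNA. The groups overlapped, and the change of 0.03 ± 0.09 (SE) had a 95% confidence interval of 0.884-fold to 1.18-fold. TYK2, the partner of JAK1 at the type I interferon and interleukin-10 family receptors, measured 7.55, 7.73 and 7.64 (row 8033996) against 7.66, 7.57 and 7.57. Its change was -0.04 ± 0.10 (SE), with an interval of 0.837-fold to 1.12-fold. The intervals of these 2 interferon kinases leave room for signal up to 18.4% higher for JAK1 and 12.5% higher for TYK2. JAK2, the kinase of the erythropoietin, growth hormone and interferon-gamma receptors, was dim at 5.42, 5.05 and 5.42 (row 8154178) against 5.48, 5.14 and 5.36. Replicate 2 was the lowest JAK2 array in both groups. The JAK2 change was 0.03 ± 0.13 (SE), with an interval of 0.829-fold to 1.25-fold. Adjusted p was 0.885 for JAK1, 0.845 for TYK2 and 0.939 for JAK2 (limma). JAK3, the kinase of lymphoid cytokine receptors and not among the 9 named genes, was looked up after the other values were seen and measured 5.33 ± 0.12 and 5.40 ± 0.13 (SD, n = 3 each; limma, adjusted p = 0.789).

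**Figure D3:**
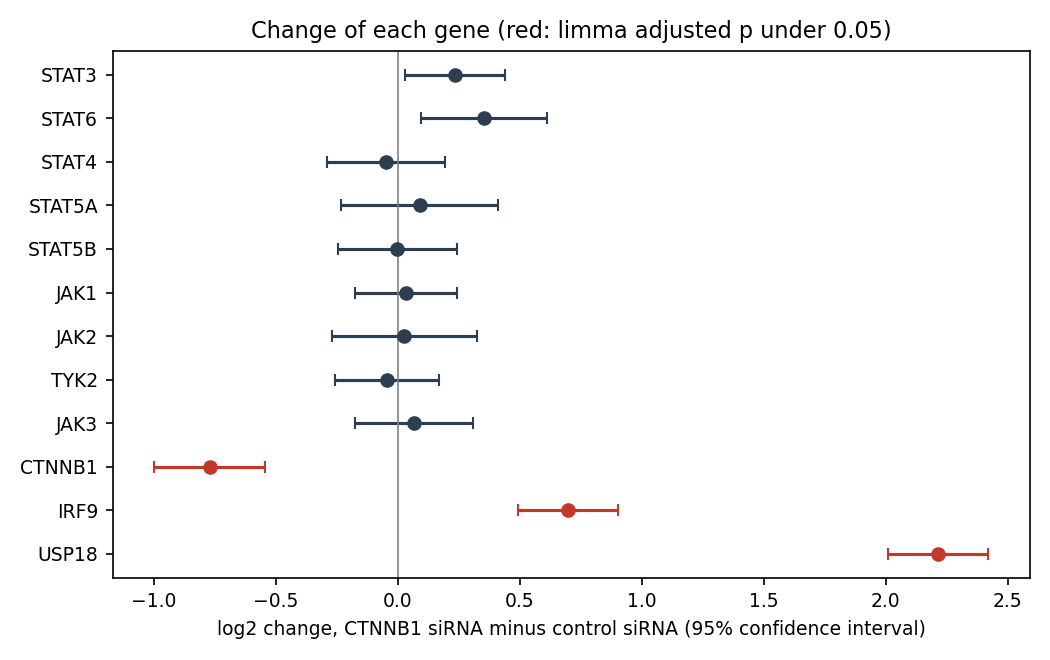
Log2 change (CTNNB1 siRNA minus control siRNA) with its 95% confidence interval from limma for the 8 members, JAK3, CTNNB1 and 2 called pathway genes, red where the adjusted p is under 0.05. The members lie between -0.05 and 0.35, CTNNB1 at -0.77, IRF9 at 0.70 and USP18 at 2.21.

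Among the cytokine genes that feed the pathway, the lambda interferons rose. Of 36 measured cytokine genes 3 rose, none fell and 33 did not pass, or 8.33% called against 4.72% of all genes. The median change was 0.12, against 0.13 for the leukocyte markers and 0.14 for the stromal and endothelial markers. IFNL1 measured 5.76, 6.01 and 5.81 with control siRNA and 6.92, 7.28 and 6.86 with CTNNB1 siRNA, a 2.23-fold rise (limma, adjusted p = 0.000892). IFNL2 rose 2.59-fold and IFNL3 1.99-fold, and these near-identical genes can share probe signal. The control signals of IFNL1 and IFNL2, 5.86 and 5.85, lay just below the array medians. IFNB1, the beta interferon gene, named after its values were seen, was dim on all arrays at 2.73 ± 0.08 and 3.05 ± 0.27 (SD, n = 3 each; limma, adjusted p = 0.226). The erythropoietin gene EPO measured 0.33 ± 0.09 (SE; adjusted p = 0.0738), IL6 0.36 ± 0.12 (0.11) and IL27 0.32 ± 0.11 (0.127) as log2 changes. IFNL3 lost its call without control replicate 1 (adjusted p = 0.0647), control replicate 3 (0.0783) or CTNNB1 siRNA replicate 1 (0.0597), while IFNL1 and IFNL2 kept theirs with any 1 array left out.

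Receptor genes that use Janus kinases gave 3 rises and no fall among 39 measured, 7.69% called against 4.72% of all genes. The median change was 0.13, like those of the leukocyte markers (0.13) and the stromal and endothelial markers (0.14). IL22RA1, the epithelial interleukin-22 receptor chain that signals through JAK1, TYK2 and STAT3, measured 6.48, 6.42 and 6.50 against 7.18, 7.07 and 6.95 (log2 change 0.60 ± 0.10, SE; limma, adjusted p = 0.00855). IL2RG, the common gamma chain that binds JAK3, measured 6.12, 5.98 and 6.17 against 6.78, 6.82 and 6.58 (0.64 ± 0.11; adjusted p = 0.0098). IL15RA, which presents interleukin-15, rose by 0.46 ± 0.10 (adjusted p = 0.0337). In these 3 genes, named for their small p-values, each silenced array lay above each control array, which is no further test. IL10RB, shared by the interleukin-22 and lambda interferon receptors, measured 0.43 ± 0.11 (adjusted p = 0.0543), IL4R, a receptor chain upstream of STAT6, 0.39 ± 0.10 (0.0578) and LIFR -0.37 ± 0.10 (0.074), and none of these passed. The interferon receptor genes, chosen after their values were seen, did not pass either: IFNAR1 measured -0.008 ± 0.11, IFNAR2 0.22 ± 0.13 and IFNLR1 0.03 ± 0.12 (SE), with overlapping groups. The interferon-gamma receptor genes, also chosen after their values were seen, measured 0.34 ± 0.11 for IFNGR1 (limma, adjusted p = 0.113) and 0.27 ± 0.09 for IFNGR2 (0.131). Their groups did not overlap, as in 15 of the 39 receptor genes and 26% of all genes, in either direction. IL22RA1 passed with any 1 array left out. IL2RG did not without CTNNB1 siRNA replicate 1 (adjusted p = 0.0564), and IL15RA passed only without CTNNB1 siRNA replicate 3, with adjusted p between 0.0842 and 0.127 without each of the other five.

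The regulators of the pathway held 2 rises and 1 fall among 24 measured genes, 12.5% called against 4.72% of all genes. The median change was 0.09. USP18, which docks at the interferon receptor and restrains JAK1 there, measured 7.23, 7.24 and 7.18 against 9.45, 9.36 and 9.49, a 4.64-fold rise (limma, adjusted p = 5.63e-07). It is itself an interferon-stimulated gene and stands in the ISGF3 list too. PTPN11, the phosphatase SHP2, measured 9.82, 9.79 and 9.78 against 9.16, 8.85 and 9.39, and its log2 change was -0.67 ± 0.13 (SE; adjusted p = 0.0196). PIAS1, a SUMO ligase that restrains STAT binding to DNA, rose by 0.43 ± 0.10 (adjusted p = 0.0399), and its relative PIAS3 measured 0.43 ± 0.11 (0.0568). SOCS6 measured -0.30 ± 0.10 (0.119) and the phosphatase gene PTPN6 0.22 ± 0.09 (0.208). The classical feedback inhibitors, named after their values were seen, did not pass. SOCS3 measured 6.16 ± 0.07 and 6.25 ± 0.14, SOCS1 6.40 ± 0.30 and 6.56 ± 0.31, and CISH 6.04 ± 0.10 and 5.96 ± 0.04 (SD, n = 3 each). Only the USP18 call held with any 1 array left out. PTPN11 reached an adjusted p of 0.0857 without control replicate 1, 0.05 without control replicate 2, 0.0655 without control replicate 3 and 0.0812 without CTNNB1 siRNA replicate 1. PIAS1 passed only without CTNNB1 siRNA replicate 2 and reached 0.14 without CTNNB1 siRNA replicate 1. Under median centring PIAS1 did not pass.

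Of 15 measured STAT partners and cofactors 3 rose and none fell, 20.0% called against 4.72% of all genes, with a median change of 0.04. IRF9, the DNA-binding subunit that joins STAT2 in ISGF3, measured 8.98, 8.98 and 8.91 against 9.58, 9.71 and 9.68, a 1.62-fold rise (limma, adjusted p = 0.00267). IRF9 stands in the ISGF3 list too, which was chosen with earlier results of these data known. NMI, a protein that binds STATs, measured 6.90, 6.97 and 7.22 against 7.98, 7.89 and 8.26, a 2.02-fold rise (adjusted p = 0.00209). In both genes all silenced arrays lay above all control arrays, where 26% of all genes had groups that did not overlap in either direction. The genes were named for their small p-values, so this separation describes the calls and is no further test. Both passed with any 1 array left out. PRKCD, a kinase that can phosphorylate STATs on serine, rose 1.49-fold (adjusted p = 0.0363), and passed only without CTNNB1 siRNA replicate 3, reaching 0.146 without control replicate 1. The nuclear import genes KPNA1 and KPNA2 measured -0.27 ± 0.10 (adjusted p = 0.168) and -0.21 ± 0.11 (0.299), and the deacetylase gene HDAC1 -0.17 ± 0.11 (0.41), as log2 changes with SE.

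Of the 53 measured genes known as targets of STAT3, STAT5 or STAT6, 6 rose, 2 fell and 45 did not pass. The share called was 15.1%, against 4.72% of all genes. Of 30 measured STAT3 targets 5 rose, 2 fell and 23 did not pass, 23.3% called, with a median change of 0.14. The immediate-early gene JUNB measured 7.23, 7.15 and 7.25 against 8.19, 8.05 and 7.78, a 1.73-fold rise (limma, adjusted p = 0.00528), and FOS rose 2.01-fold (0.00763). MYC measured 10.38, 10.35 and 10.40 against 9.86, 9.68 and 9.75, a log2 change of -0.61 ± 0.09 (SE; adjusted p = 0.00644). MYC is also a target of beta-catenin. SAA2, a serum amyloid gene, rose by 0.46 ± 0.10 (adjusted p = 0.0324) and the haptoglobin gene HP, dim at 2.33 with control siRNA, by 0.75 ± 0.13 (0.0129). SAA1, a relative of SAA2 in the same list, was named after its values were seen. It measured 0.12 ± 0.10 (0.567) and did not pass. SERPINA3, a protease inhibitor gene, fell by 0.57 ± 0.11 on the log2 scale (0.0198). PIM1, a survival kinase in the STAT3 and STAT5 lists, rose by 0.49 ± 0.12 (adjusted p = 0.0458) and did not pass with the replicate number as a block. It passed with only CTNNB1 siRNA replicate 3 left out and reached 0.18 without control replicate 1. JUNB and MYC passed with any 1 array left out. FOS did not without CTNNB1 siRNA replicate 1 (0.0563), nor HP without that array (0.0563) or control replicate 1 (0.0664). SERPINA3 was lost without control replicate 2, control replicate 3, CTNNB1 siRNA replicate 1 or CTNNB1 siRNA replicate 2 (0.061 to 0.0686), and SAA2 without any 1 array (0.0522 to 0.152).

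Of 13 measured STAT5 targets none fell and 2 rose, 15.4% called against 4.72% of all genes. They were PIM1 and the cell cycle inhibitor CDKN1A, at 7.40 ± 0.12 against 7.99 ± 0.06 (SD, n = 3 each; limma, adjusted p = 0.0102, and 0.0532 without CTNNB1 siRNA replicate 1). CDKN1A is also a p53 target. ID1 measured 0.39 ± 0.12 (SE; adjusted p = 0.0909), BCL6 0.29 ± 0.13 (0.249), SOCS2 0.22 ± 0.11 (0.277) and OSM 0.21 ± 0.11 (0.345). Of 16 measured STAT6 targets none passed in limma, and 3 had an unadjusted p under 0.05, as 20.3% of all genes did. The nearest were TGM2, a transglutaminase gene, at 0.42 ± 0.10 (adjusted p = 0.052) and IL4R at 0.39 ± 0.10 (0.0578), and EPAS1 measured 0.29 ± 0.12 (0.229). ALOX15 measured 0.21 ± 0.12 (0.373), IL13RA2 0.17 ± 0.12 (0.483) and FCER2 0.12 ± 0.11 (0.583). Median changes were 0.10 for the STAT5 list and 0.11 for the STAT6 list. The STAT3, STAT5 and STAT6 list medians were no larger than that of the stromal and endothelial markers, 0.14.

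The ISGF3 targets, genes that interferon switches on, all passed, and IRF9 and USP18 are among them. All 39 measured members rose, where 2.07% of all genes did, from 0.70 for IRF9 to 4.28 for RSAD2 in log2 change. The list was chosen with earlier results of these data known, so this count is a description and not a test. IFIT1, whose promoter is printed above, measured 6.06, 5.92 and 6.28 with control siRNA and 10.28, 10.36 and 10.44 with CTNNB1 siRNA, a 19.3-fold rise (limma, adjusted p = 5.44e-08). XAF1 rose 8.91-fold and OAS2 15.8-fold. The 95% confidence interval of STAT6, 0.10 to 0.61, overlapped those of the least changed targets, such as IRF9 at 0.49 to 0.90, and the difference between members and targets was not tested.

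**Figure D4:**
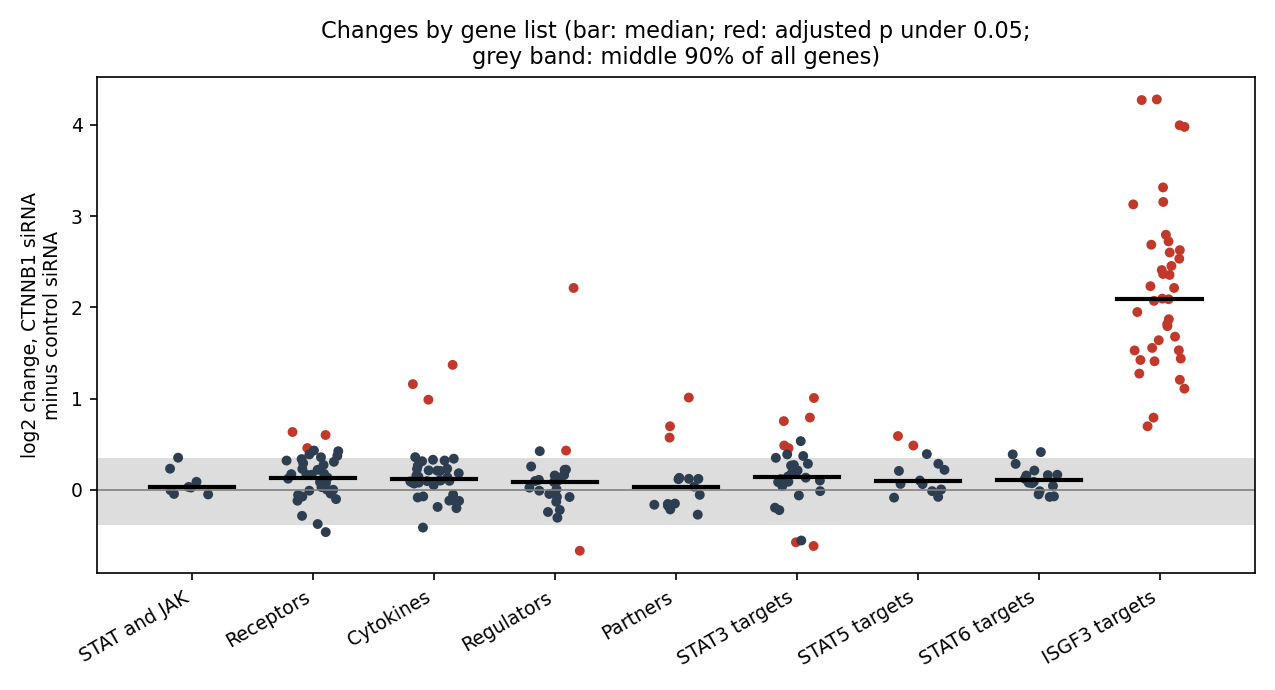
Log2 change (CTNNB1 siRNA minus control siRNA) of each gene by list, red where the adjusted p is under 0.05, with black bars for list medians and a grey band for the middle 90% of all genes (-0.38 to 0.34). Of the 8 STAT and JAK genes STAT6, at 0.354, lies just above the upper edge of the band at 0.341, and the others lie inside. All 39 ISGF3 targets lie above the band.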

How the data were processed

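The deposited table holds log2 signals. Per the submitters' processing notes the authors used RMA (background correction, normalization across arrays, summary of probes per row) and Affymetrix Expression Console 1.1. Such scaling hides any shift common to most genes. The table held 33297 rows, of which 19460 had 1 gene symbol. The brightest row per gene was used, giving 18417 genes, and each member had 1 row. Background calls per probe were not used here, so signals below the array median may be background.

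The test was limma 3.58.1 (R 4.3.3; two-sided, lmFit and eBayes, no covariate). P-values were adjusted by Benjamini-Hochberg over all genes, with 0.05 as the threshold. Errors of changes are standard errors of that fit, and it was tested on simulated data. The members and gene lists were chosen with earlier results of these data known, and 15 listed genes had no row with their symbol alone. Named genes are the members, CTNNB1 and the up to 6 smallest p-values of each list. Any other is said to be chosen after its values were seen, except family or marker examples. No member was called, so no genes of like pattern are named. Arrays of a group differed by an SD of 0.203 to 0.262 over genes. Promoters came from RefSeq (GRCh38.p14), and the genome build of the authors' annotation is not given in the sources used here. Other settings were a replicate block, 3 other scalings, 2 filters, 3 variance models, all rows averaged or all tested, a threshold of 0.10 and leaving out each array.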

Additional observations from a re-analysis of the deposited data

How the results depend on the processing

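The 8 STAT and JAK genes gave 0 calls as reported and with any 1 array left out, and 1 call, STAT6, under cyclic loess (log2 change 0.43) and, at 0.35, with the dimmest 50% of genes removed or a trended and robust variance. Those 3 settings called 4.85%, 20.2% and 8.81% of the genes in the fit, against 4.72% as reported. STAT4 was not in the fits without the dimmest 25% or 50% of genes, and STAT5A and JAK2 not in the last. The replicate block called 0 members, with log2 changes of 0.35 for STAT6 and 0.23 for STAT3. Deviations of same-numbered arrays correlated at -0.0188, 0.329 and 0.223 for replicates 1, 2 and 3. Replicates 2 and 3 correlated best with their own number, and replicate 1 did not. The reported fit did not take the numbers as pairs, and these values do not settle whether they are. The block gave 1177 calls over all genes against 870.

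Members near 0 changed sign: STAT5B was 0.048 with array weights, 0.037 under cyclic loess and 0.032 after quantile normalization again, JAK1 -0.0055 under median centring, and JAK2 -0.017 under cyclic loess, -0.012 under median centring and -0.0026 after quantile normalization again. With 1 array left out, log2 changes ran from 0.20 to 0.26 for STAT3, 0.25 to 0.43 for STAT6, -0.13 to 0.029 for STAT4, -0.058 to 0.20 for STAT5A, -0.083 to 0.079 for STAT5B, -0.0072 to 0.068 for JAK1, -0.097 to 0.12 for JAK2 and -0.088 to 0.0012 for TYK2.

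Receptor calls, 3 as reported, were 8 at a threshold of 0.10 or with array weights, 7 under cyclic loess, with the dimmest 50% removed or with trended variance, 6 without the dimmest 25%, 5 after quantile normalization again, and 0 over all rows or without moderation. Cytokine calls, 3, were 4 without the dimmest 25%, 0 without moderation, and 1 without the dimmest 50%, a filter that removed IFNL1 and IFNL2 and left IFNL3 called (adjusted p = 0.00157). Regulator calls, 3, became 5 without the dimmest 50% and 1 over all rows or without moderation. Calls of STAT3, STAT5 and STAT6 targets, 8, became 15 with trended variance, 14 at 0.10, 13 with array weights or either filter, 2 over all rows and 0 without moderation. With 1 array left out these counts ran from 1 to 3, 2 to 3, 1 to 3 and 2 to 8, lowest without CTNNB1 siRNA replicate 1 in each case, a value shared with other arrays for cytokines and regulators. Of all genes, 9.06% passed at 0.10, 6.56% with array weights, 4.85% under cyclic loess and 4.95% after quantile normalization again. The share was 8.81% with trended variance, 10.7% without the dimmest 25%, 20.2% without the dimmest 50% and 0.757% over all rows. With 1 array left out it ran from 1.54% to 4.76%. The fit without moderation has few degrees of freedom and called 111 of all genes, or 0.603%.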
